A study of Mus musculus with 9 samples.

Results

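The comparison set MIN6 cells kept in high arginine medium, at 20 times the standard arginine concentration, directly against MIN6 cells kept in low arginine medium, at 0.1 times the standard concentration. These ends of the range are 200-fold apart. The 3 high and 3 low arginine libraries were chosen by their group labels and are 6 of the 9 libraries of the series. The other 3, from cells in standard arginine (1 time the standard concentration), served to place genes that differed between the ends. They also entered the filter on low values and the estimate of the spread behind the p-values. A gene is called graded where its standard mean lies 20 to 80% of the way from its low mean to its high mean. It is called saturated where the standard mean lies at 80 to 120%. MIN6 is a line from a mouse insulinoma, labelled C57BL/6, that stands in for the insulin-producing beta cell. All groups came from this 1 line, the labels name no genetic change, and cells were kept for 24 h in their medium, which the labels write as DEME. Whether the libraries of a group came from separate cultures is not in the labels; the p-values therefore reflect the spread among these libraries alone, and that spread may be technical.

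Arginine enters beta cells through cationic amino acid transporters, stimulates insulin release and feeds protein, creatine, polyamine and nitric oxide synthesis. Scarcity of an amino acid leaves transfer RNA uncharged, which activates the kinase GCN2; phosphorylated eIF2 then favours translation of the transcription factor ATF4, which drives genes of amino acid supply and stress. Sufficient arginine, sensed by CASTOR proteins and at the lysosome, permits activity of the growth kinase complex mTORC1, which among other effects promotes transcription of lipid synthesis genes through SREBP factors and of glycolysis genes through HIF1.

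Promoter stretches of 8 genes with large differences are shown here, because their letters hold the core motifs usually tied to ATF4, SREBP, NF-kB and HIF factors. They come from the RefSeq promoter table (build GRCm38.p6), are written 5′ to 3′ on the strand of the gene, and carry the motif in capitals. Atf3 lies on the minus strand (chr1:191183406-191183473), Chac1 on the plus strand (chr2:119351019-119351086), Nupr1 on the minus strand (chr7:126625543-126625610) and Angptl8 on the plus strand (chr9:21835350-21835417), each with the C/EBP-ATF core TGATGNAA or its complement. Hmgcs1 lies on the plus strand (chr13:119690184-119690252) with the sterol core TCACNCCAC. Slc16a3 on the plus strand (chr11:120949010-120949066) and Bnip3 on the minus strand (chr7:138909578-138909645) hold the hypoxia core ACGTGC. Cxcl10 on the minus strand (chr5:92348953-92349078) holds the kappa B core GGGANNTNC. In Bnip3, and in the second match of Cxcl10, matches on both strands overlap.
Atf3: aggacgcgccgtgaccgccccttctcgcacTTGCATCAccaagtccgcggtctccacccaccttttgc
Chac1: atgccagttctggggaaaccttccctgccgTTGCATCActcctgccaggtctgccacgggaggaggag
Nupr1: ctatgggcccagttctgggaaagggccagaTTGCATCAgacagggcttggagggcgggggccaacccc
Angptl8: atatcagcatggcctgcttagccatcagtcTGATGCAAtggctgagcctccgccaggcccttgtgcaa
Hmgcs1: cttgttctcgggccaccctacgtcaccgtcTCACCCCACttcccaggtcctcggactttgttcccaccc
Slc16a3: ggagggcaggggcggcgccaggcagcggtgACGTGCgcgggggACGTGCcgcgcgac
Bnip3: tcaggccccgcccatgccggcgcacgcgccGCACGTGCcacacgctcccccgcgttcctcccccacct
Cxcl10: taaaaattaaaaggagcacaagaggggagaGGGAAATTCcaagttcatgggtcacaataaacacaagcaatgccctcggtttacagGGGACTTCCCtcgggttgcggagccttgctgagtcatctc

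The deposited values are FPKM, reads scaled to gene length and library size. The 9 libraries held 21550637 to 26300872 reads in genes, rebuilt from these values, and 12300 genes that reached 1 FPKM in 3 or more libraries were tested. Differences below are high minus low arginine in log2(FPKM + 1) units; the added 1 makes the change of weakly expressed genes look smaller. A gene is called at a Benjamini-Hochberg adjusted p under 0.05 in limma over all genes tested. In the first principal component, with 76.8% of the variance, the low arginine libraries stood at -39.7 to -36.4 and the other 6 at 16.8 to 20.3. The cells carried beta cell transcripts at both ends: Ins2 was the most abundant of the insulin genes, and Pdx1 and Nkx6-1 were tested, although Slc2a2, the rodent beta cell glucose transporter, had means of 0.0235 FPKM in low and 0.00249 FPKM in high arginine.

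Between both ends of the range 3967 genes, 32.3% of those tested, were higher in high arginine and 3594, 29.2%, were lower, together 61.5%. The median difference over all genes tested was 0.01. With library totals made equal (TPM), 3092 were higher and 4749 lower, so higher genes made up 39.4% of calls in place of 52.5%, and the median over all genes moved to -0.091. At least 2-fold differences (1 or more on the log2 scale) were called in 654 genes, 5.32% of those tested, with 420 higher (3.41%) and 234 lower (1.9%). In 68.4% of tested genes the 3 high arginine libraries did not overlap the 3 low ones. The counts of every gene list below stand beside 32.3% higher and 29.2% lower over all genes tested.

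Enzymes of lipid synthesis held the largest rises. Scd1, the stearoyl-CoA desaturase that makes monounsaturated fatty acids (chr19:44394451-44407709), had 2.425, 2.940 and 2.820 FPKM in the low arginine libraries and 86.98, 75.82 and 74.72 FPKM in the high ones. Every high library lay far above every low one, and the standard libraries, at 86.82, 99.08 and 86.93 FPKM, overlapped the high ones. The difference was 4.43 (SE 0.08, adjusted p 4.67e-10), the largest rise among genes named by the rule. Scd2, a second desaturase of the same family, rose from 64.75, 71.32 and 68.69 FPKM to 719.8, 649.9 and 625.8 FPKM, a difference of 3.27 (SE 0.07). Fasn, the fatty acid synthase, rose from 17.9, 17.82 and 16.59 FPKM to 119.6, 105.6 and 100.2 FPKM, by 2.57 (SE 0.09). The groups did not overlap for either gene.

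Cholesterol synthesis rose as a group, in the mevalonate pathway and in the sterol steps that follow it. Of 25 genes on the list of cholesterol synthesis and uptake, 25 were tested, 25 were higher in high arginine and 25 were at least 2-fold higher, with a median of 2.22 against 0.01 over all genes tested. Hmgcs1, which makes HMG-CoA, had 5.479, 6.229 and 6.045 FPKM in low and 66.46, 69.07 and 69.31 FPKM in high arginine, a difference of 3.33 (SE 0.07, adjusted p 6.44e-10). Insig1, the ER protein that holds back SREBP processing, had 18.89, 20.91 and 20.24 FPKM in low and 154.4, 165 and 164.4 FPKM in high arginine, a difference of 2.95 (SE 0.06). Low and high libraries were well apart for both. Among the enzymes past squalene, Nsdhl was higher by 2.73 and Cyp51 by 2.67. Idi1, the isopentenyl diphosphate isomerase, was higher by 2.80 and Srebf2, the factor that drives these genes, by 1.88. Cyp51 overlaps Akap9 on the other strand, and Fdps, at a mean of 0.0981 FPKM in low and 1.78 FPKM in high arginine, has near-identical copies, so both are uncertain.

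Of the 18 genes named for fatty acid synthesis and desaturation 16 were tested; 14 were higher, 1 was lower and 1 was not called, with a median of 1.33, and 10 were at least 2-fold higher. Next to Scd1, Scd2 and Fasn, the desaturase Fads2 was higher by 1.72, the elongase Elovl6 by 1.70, the acetyl-CoA synthetase Acss2 by 1.53, and the mitochondrial citrate carrier Slc25a1 by 1.53. Acaca, which makes malonyl-CoA, was higher by 1.06 and Acly, which cleaves citrate, by 0.62. Srebf1 was higher by 1.68, but overlaps Rai1 on the other strand. The 1 gene that was lower was Mid1ip1, an activator of acetyl-CoA carboxylase, at -0.80. Of the printed letters, the sterol core is found in the 250 bases before the start in 1.2% of all RefSeq promoters. It is in 1 of 17 cholesterol genes with a promoter in the table, Hmgcs1, and in 0 of 13 fatty acid genes; a match describes letters and shows no binding.

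**Figure D1:**
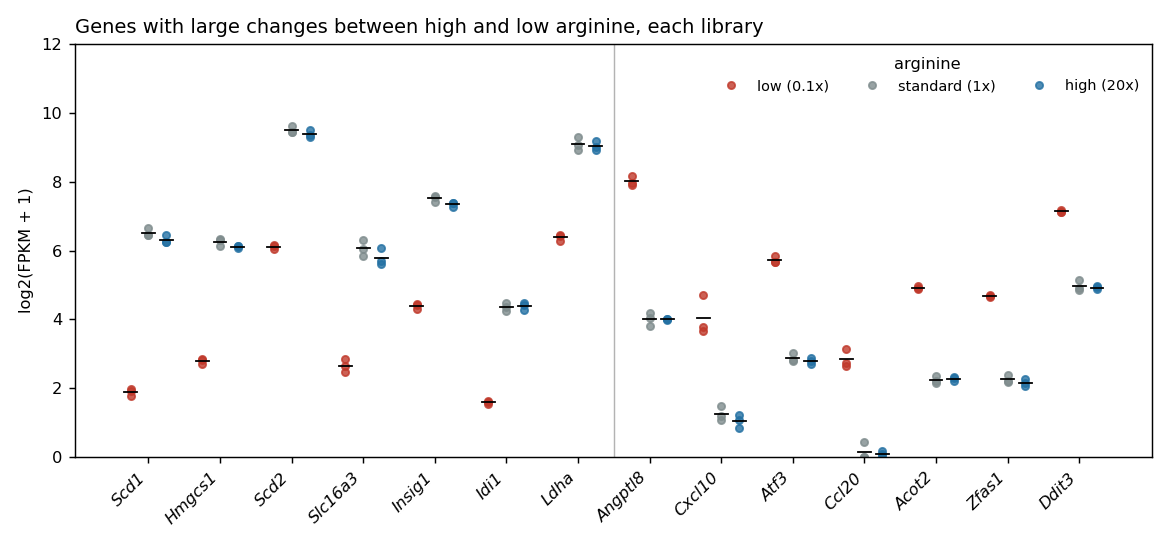
Level of genes with large differences in every library, as log2(FPKM + 1), with 1 point per library and a bar at the group mean; 7 genes that were higher in high arginine stand to the left of the grey line and 7 that were lower to the right. Standard and high arginine libraries sit together for each gene, and low arginine libraries apart from them, as for Scd1 (2.425 to 2.940 FPKM in low and 74.72 to 86.98 FPKM in high arginine).

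Glycolysis and lactate export were the next group. Of 24 tested entries for the 25 genes named 19 were higher, 2 lower and 3 not called, with a median of 1.45, and 15 were at least 2-fold higher. Slc16a3, a lactate exporter of the plasma membrane, had 4.590, 6.152 and 5.289 FPKM in low and 65.89, 50.99 and 47.86 FPKM in high arginine, a difference of 3.13 (SE 0.14, adjusted p 5.06e-08). Ldha, which converts pyruvate to lactate, had 77.1, 86.45 and 84.53 FPKM in low and 585, 512.2 and 485.8 FPKM in high arginine, a difference of 2.66 (SE 0.10). All high libraries lay above all low ones for both genes. Pfkl, a phosphofructokinase subunit, was higher by 2.29, Aldoc, an aldolase, by 2.03, Gpi1, glucose-6-phosphate isomerase, by 1.94, and Slc2a1, a glucose transporter, went from a mean of 9.73 to 29.5 FPKM. Hk1, a hexokinase, was lower, by a difference of -0.43. Gapdh (-1.37, SE 1.06, adjusted p 0.285) and the Aldoa entries (1.32 and -0.52) have near-identical copies or a second entry that can take their reads.

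The hypoxia-inducible list divided. Of 15 tested genes 11 were higher, 3 lower and 1 not called, with a median of 0.46. Bnip3, a mitophagy receptor of the outer mitochondrial membrane, had 16.8, 19.07 and 18 FPKM in low and 103.4, 91.09 and 95.56 FPKM in high arginine, a difference of 2.37 (SE 0.10). Fam162a, a mitochondrial protein, was higher by 2.01 and the collagen prolyl hydroxylases P4ha1 and P4ha2 by 1.59 and 1.60. Vegfa, the vascular growth factor, was lower (-1.18), as were Ndrg1 (-0.97) and Adm, which encodes adrenomedullin (-0.91). The hypoxia core ACGTGC, found in 8.4% of tested genes with a promoter, was in 8 of the 10 higher genes of this list with a promoter and in 0 of the 2 lower ones. In the glycolysis list it was in 6 of 18 higher genes, Slc16a3 among them with the pair of matches printed above. Fam162a overlaps Wdr5b on the other strand.

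Angptl8, Atf3 and Ddit3 were among the 12 largest falls that the rule named. Angptl8, a secreted regulator of lipoprotein lipase (chr9:21835510-21837347), had 285.6, 246.3 and 240.8 FPKM in low and 15.16, 15.22 and 14.87 FPKM in high arginine, a difference of -4.00 (SE 0.10, adjusted p 9.35e-10). The standard libraries, at 17.22, 15.61 and 12.96 FPKM, overlapped the high ones. Atf3, a transcription factor induced by ATF4, fell from 56.86, 50.24 and 49.77 FPKM to 5.51, 5.892 and 6.435 FPKM, a difference of -2.94 (SE 0.08). Ddit3, which encodes CHOP, fell from 143.6, 139.5 and 138.5 FPKM to 29.52, 30.17 and 28.57 FPKM, a difference of -2.22 (SE 0.07). For Angptl8, Atf3 and Ddit3 the lowest low arginine library lay several times above the highest high arginine library. Ddit3 overlaps Mars, a similarly abundant gene, on the other strand.

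Of the 42 genes named as ATF4 amino acid response targets 39 were tested; 30 were lower in high arginine, 1 was higher and 8 were not called, with a median of -0.75, and 14 were at least 2-fold lower. Trib3, a pseudokinase that restrains AKT and ATF4, was at -1.93 and Ppp1r15a, which directs the eIF2 phosphatase, at -1.73. Nupr1, a chromatin-associated stress protein, was at -1.69, Slc3a2, the heavy chain of several amino acid exchangers, at -1.67, Cebpg, a dimer partner of ATF4, at -1.55, and Chac1, which degrades glutathione, at -1.26. Atf4 itself was not called (0.06, adjusted p 0.388; called lower at -0.20 under quantile normalization), and neither was Asns, asparagine synthetase (0.11, adjusted p 0.131). The 1 higher gene was Ddit4, an inhibitor of mTORC1, at 0.29. It was not called higher in TPM, under quantile normalization or with no filter. The call was also lost without low replicate 2, low replicate 3 or high replicate 1. The C/EBP-ATF core, found in 2.3% of tested genes with a promoter, was in 5 of 23 lower members (Atf3, Chac1, Nupr1, Slc7a11 and Jdp2) and in 5 of 7 members not called (Asns, Vldlr, Pycr1, Aars and Gars).

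Amino acid supply genes, some of which are also on the ATF4 list, were mostly lower. Over all genes tested 32.3% were higher and 29.2% lower. Of 20 aminoacyl-tRNA synthetases, which charge transfer RNA, 12 were lower, 3 higher and 5 not called (median -0.28). The list was drawn up for cytosolic enzymes but also holds the mitochondrial Fars2, which was not called. Yars, for tyrosine, was at -1.05, while Qars, for glutamine, was at 0.87 and Rars, the arginine enzyme, at -0.40. Of 12 serine and folate genes 8 were lower and 1 higher, with Shmt2, the mitochondrial serine hydroxymethyltransferase, at -0.97. Of 19 tested amino acid transporters 11 were lower and 4 higher. The arginine carriers Slc7a1 and Slc7a3 were at -0.97 and -1.02, Slc6a9, a glycine transporter, at -1.38, and Slc38a10 at 1.09, whereas Slc7a2, a further arginine carrier, was not called (-0.06, adjusted p 0.518). Slc6a9 overlaps B4galt2 on the other strand.

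Of 20 tested genes for arginine, polyamine and methylation enzymes 8 were higher, 6 lower and 6 not called, with a median of 0.07 that changes sign in TPM (-0.04); over all genes tested 32.3% were higher and 29.2% lower. Asl, which makes arginine from argininosuccinate, was higher by 0.96 (SE 0.06), and Gamt, which makes creatine, by 1.11. Prmt1, the main arginine methyltransferase, was at -0.99, Prmt3 at -0.68 and Prmt5 at -0.46. Odc1, the first enzyme of polyamine synthesis, was at -0.82. Ass1, which makes argininosuccinate, was called at 0.25 (adjusted p 0.0434), a call lost in 9 of the 18 other settings tried, the replicate block among them (0.25, adjusted p 0.0520). Mat2a, which makes S-adenosylmethionine, is described below with the genes that changed above standard arginine.

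Of 32 tested genes for arginine sensing and mTORC1, 12 were higher, 9 lower and 11 not called, with a median of 0.01, against 32.3% higher and 29.2% lower over all genes tested. Castor2, a relative of the arginine sensor Castor1, rose from 7.848, 7.402 and 7.21 FPKM to 20.13, 17.67 and 17.49 FPKM, a difference of 1.19 (SE 0.07), while Castor1 was too low to be tested. Deptor, an inhibitor bound to mTOR, was at -1.11, and Sesn2, a leucine sensor and ATF4 target, at -0.95. Lamtor2 and Lamtor5, of the complex that anchors mTORC1 to the lysosome, were higher by 0.73 and 0.63. Of 11 tested eIF2 kinase, GCN2 and phosphatase genes 4 were higher and 4 lower; Eif2ak4, which encodes GCN2, was higher by 0.20.

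Protein folding genes of the ER were higher with arginine, although the unfolded protein response sensors were not all so. Of 32 tested, 25 were higher, 3 lower and 4 not called (median 0.79), and 13 were at least 2-fold higher. Pdia4, a disulfide isomerase, had 49.93, 51.92 and 47.41 FPKM in low and 136.3, 141.4 and 141.3 FPKM in high arginine, a difference of 1.47 (SE 0.06). Pdia6 was higher by 1.41, Manf, a secreted ER protein, by 1.37, Edem1, which marks misfolded glycoproteins, by 1.28, and Derl3, a degradation factor, by 1.88. Hspa5, the chaperone BiP, was higher by 0.41 (adjusted p 6.57e-04), but not called at -0.11 under quantile normalization. The 3 lower members were Ern1, the sensor IRE1 (-0.95), Herpud1 (-0.78) and Derl1 (-0.25). Among cytosolic chaperones 16 of 20 were higher and 1 lower, and in TPM 13 were higher. Hspa8, the constitutive HSP70, had 119, 125 and 122.5 FPKM in low and 390.7, 461.8 and 436 FPKM in high arginine, and Hsp90ab1 was higher by 1.27.

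**Figure D2:**
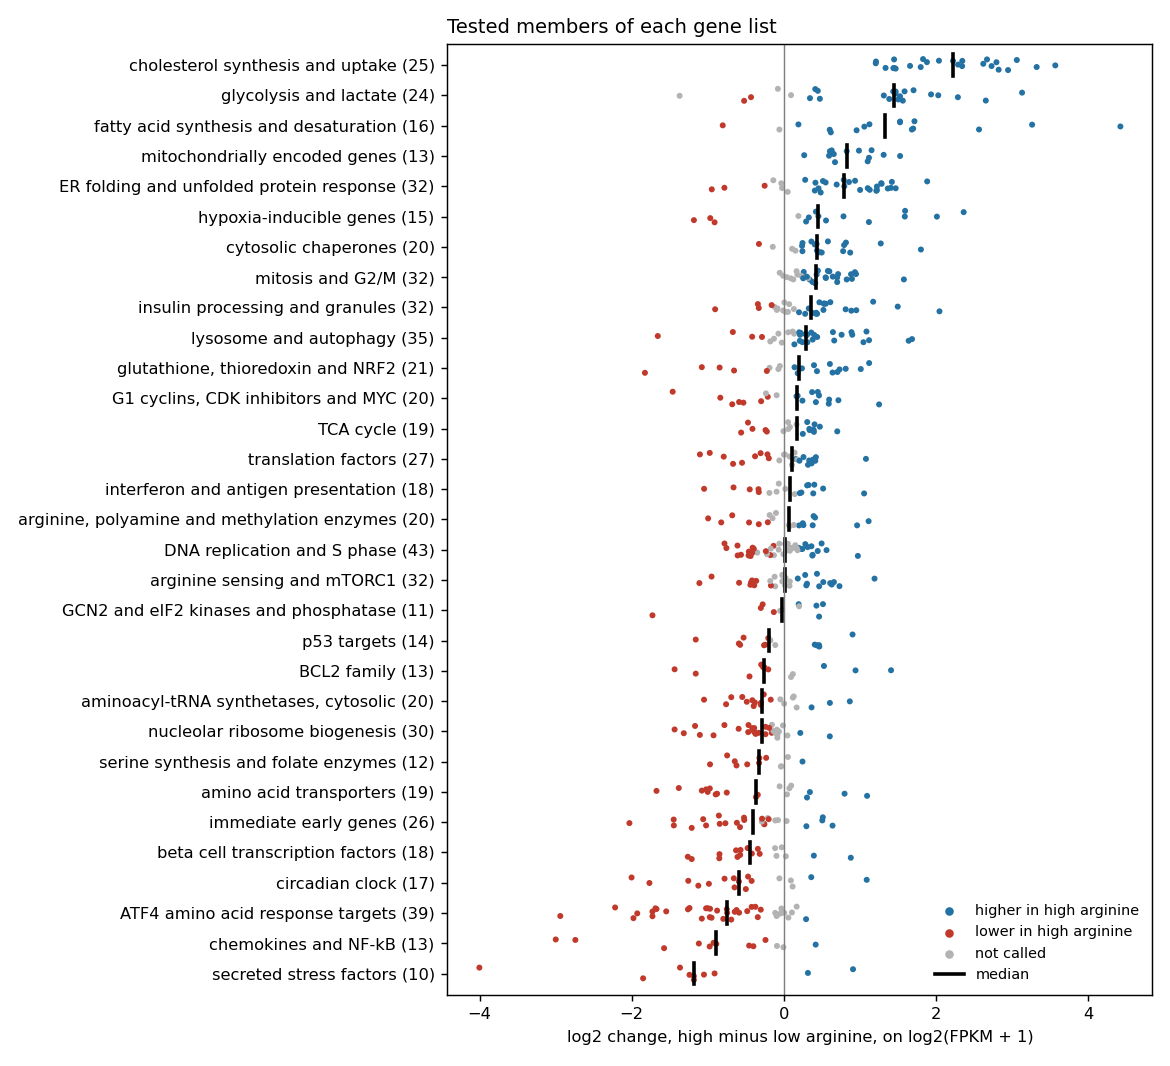
Difference between high and low arginine for every tested member of 31 gene lists, as log2 on the FPKM + 1 scale, with 1 point per gene, blue where called higher, red where called lower, grey where not called, and a black bar at the list median. Medians run from 2.22 for cholesterol synthesis and uptake to -1.18 for secreted stress factors, with 0.01 over all genes tested.

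Of 35 tested lysosome and autophagy genes 24 were higher, 4 lower and 7 not called (median 0.29); in TPM 18 were higher and 6 lower. Gusb, a glucuronidase, was higher by 1.69, Npc2, the lysosomal cholesterol carrier, by 1.64, and the protease Ctsl by 1.12. Sqstm1, the autophagy adaptor p62, fell from 552.9, 513 and 479.4 FPKM to 166.6, 165.2 and 155.5 FPKM, a difference of -1.66 (SE 0.07), with no overlap of the groups. Gabarapl1, an ATG8 family protein, was at -0.67.

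Beta cell transcription factors were mostly lower at high arginine, while prohormone convertases were higher. Of 18 tested genes on this list 12 were lower, 2 higher and 4 not called (median -0.45). The 2 higher genes were Rfx6 and Ucn3, of which Ucn3 encodes a secreted peptide and not a transcription factor. Nkx6-1 and Pdx1, which maintain beta cell identity, were at -1.26 and -1.21, Isl1 at -0.85, Neurod1 at -0.57 and Pax6 at -0.32. Mafa, an activator of insulin transcription, was not called (-0.12, adjusted p 0.202), but was called lower in TPM (-0.24) and under quantile normalization (-0.44). Of 32 genes for insulin processing and granules 19 were higher, 4 lower and 9 not called (median 0.35); under quantile normalization 14 were higher and 7 lower, with a median of 0.09.

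Pcsk1, which makes the first cuts in proinsulin, had 44.67, 54.64 and 53.22 FPKM in low and 198.6, 219.8 and 219.5 FPKM in high arginine, a difference of 2.05 (SE 0.09). Pcsk2, the second convertase, was called higher, with 64.3 ± 5.63 FPKM in low and 183 ± 8.95 FPKM in high arginine (SD, n = 3 each), and Ptprn2, a granule membrane protein, was higher by 1.18. The libraries of both ends were apart for Pcsk1. Ins1 rose from 1024, 1110 and 1060 FPKM to 1605, 1530 and 1454 FPKM, by 0.52 (adjusted p 1.07e-04). Ins2 had 52440, 52400 and 51390 FPKM in low and 48320, 48570 and 46950 FPKM in high arginine, and was not called (-0.12, SE 0.06, adjusted p 0.124), though the groups did not overlap. It was called lower in TPM (-0.24), with array weights (-0.11) and without standard replicate 3 (-0.12), which enters only through the spread. Ins1 and Ins2 are similar in sequence, so their reads could be split between them. Kcnj11, the pore subunit of the ATP-sensitive potassium channel, was at -0.90, and Abcc8, its partner subunit, at 0.43.

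Markers of other islet cells differed too. Of 7 alpha cell markers 3 were tested. Ttr, the carrier transthyretin, had 295.9 ± 43.6 FPKM in low and 868.6 ± 4.80 FPKM in high arginine (SD, n = 3 each; difference 1.56). Gcg, which encodes glucagon, had 16.3 ± 1.59 and 27.0 ± 1.78 FPKM (difference 0.70), while Gc was at -0.24, a call lost in 8 of the 18 other settings, and the 4 markers not tested had means of at most 0.21 FPKM in any group. The summed level of the list was 484 to 625 FPKM in low and 1090 to 1130 FPKM in high arginine. Of 5 delta and PP cell markers 2 were tested. Sst, which encodes somatostatin, had 11250, 8663 and 9356 FPKM in low and 5868, 5684 and 5675 FPKM in high arginine (-0.76, SE 0.09), and Hhex, the delta cell factor, was listed at 0 at both ends. That list summed to 8720 to 11300 FPKM in low and 5720 to 5910 FPKM in high arginine. In these bulk libraries fewer cells of a type and less RNA per cell cannot be told apart, and the part these markers play in the beta cell gene results was not tested. None of the fibroblast (9), endothelial (6) or immune (7) markers was tested, with highest means of 0.0612, 0.0636 and 0.324 FPKM over the 9 libraries. Of 13 acinar and ductal markers Krt7 (0.59) and Spp1 (-1.14) were tested, and the acinar enzymes Prss1, Prss2, Cpb1 and Amy2a5 were listed at 0 in every group.

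Of the chemokine and NF-kB genes tested, 10 of 13 were lower in high arginine. Cxcl10, a T cell chemokine, had 25.35, 11.66 and 12.65 FPKM in low and 0.8019, 1.119 and 1.331 FPKM in high arginine, a difference of -3.00 (SE 0.24, adjusted p 1.86e-06). The first low library was about as far above the other low ones as those were above 0, and all 3 exceeded every high library. Ccl20, another chemokine, had 7.799, 5.258 and 5.648 FPKM in low and 0.03026, 0.1223 and 0.05858 FPKM in high arginine, the latter from a mean of 2.33 reads; its difference was -2.74 (SE 0.15). Of 30 genes named for chemokines and NF-kB 13 were tested, with 10 lower, 1 higher and 2 not called (median -0.89). Genes that passed the filter only through the low arginine libraries, such as Ccl20, had to differ. With no filter 28 were tested, 10 were lower, 1 was higher and 17 were not called, with a median of -0.08; without 1 low arginine library 12 were tested, with a median of -0.64 to -0.66. Nfkbia, the NF-kB inhibitor that NF-kB itself induces, was at -1.57 and Relb, a subunit, at -1.12. The kappa B core, found in 16.1% of tested genes with a promoter, was in 6 of 8 lower members (Cxcl10, Cx3cl1, Nfkb2, Rel, Nfkbia and Csf1).

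Of 26 tested immediate early genes 17 were lower, 4 higher and 5 not called (median -0.40). With no filter 29 were tested, with 15 lower, 3 higher and 11 not called (median -0.29). Without 1 low arginine library 25 were tested, with 14 or 15 lower. In TPM 21 of the 26 were lower and 3 higher. Dusp6, a phosphatase that dampens ERK, had 86.29, 113.6 and 106.2 FPKM in low and 23.49, 25.31 and 23.42 FPKM in high arginine, a difference of -2.03 (SE 0.09). Klf10 and Junb were at -1.45 and Jun at -1.21, while Egr1, another early gene of the ERK pathway, was higher by 0.51 and Fos was not called (-0.21). Junb overlaps Prdx2 on the other strand. Of 20 secreted stress factors named 10 were tested, and with no filter all 20 were, with a median of -0.12 in place of -1.18. Of the 10, 8 were lower, 7 of them at least 2-fold, with Angptl6 at -1.85, Adm2 at -1.36 and Stc2 at -1.24. Angptl6 overlaps A230050P20Rik on the other strand. The list shares Stc2 with the ATF4 targets and Vegfa and Adm with the hypoxia list.

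The largest falls also held 3 small nucleolar RNA host transcripts, which are noncoding: Zfas1 at -2.53, Snhg12 at -2.42 and Snhg1 at -2.31. Zfas1 overlaps Znfx1 on the other strand. Acot2, a mitochondrial acyl-CoA thioesterase, had 28.8, 30.22 and 29.19 FPKM in low and 3.603, 3.939 and 4.037 FPKM in high arginine (-2.65, SE 0.07); it belongs to a cluster of similar genes that can share reads. Fam129a was at -2.24, Ostn, a secreted peptide gene, at -2.17, and Mef2b, which overlaps Borcs8, at -2.04. Of 30 nucleolar genes for ribosome biogenesis 19 were lower, 2 higher and 9 not called (median -0.29), with the small nucleolar RNP proteins Nop58 at -1.44, Nop56 at -1.31 and Gar1 at -1.10. Of 27 translation factors 11 were higher and 9 lower, against 32.3% higher and 29.2% lower over all genes tested. In TPM 7 were higher and 9 lower, and under quantile normalization 7 were higher and 10 lower. Eef2, the translocation factor, was at 1.08 and Eif1, which fixes start codon choice, at -1.10.

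Of 32 mitosis and G2/M genes 23 were higher, 0 lower and 9 not called (median 0.42); in TPM 17 were higher and 0 lower. Aurkb, a mitotic kinase, had 10.24, 13.11 and 12.87 FPKM in low and 35.95, 38.76 and 38.95 FPKM in high arginine, a difference of 1.58 (SE 0.08). Mki67, a proliferation marker, was higher by 0.71 and Cdk1 by 0.70. Of 43 replication and S phase genes 12 were higher, 14 lower and 17 not called (median 0.02, and -0.10 in TPM), against 32.3% higher and 29.2% lower over all genes tested. Cdc6 and Mcm4, of the complex that licenses origins, were at -0.75 and -0.78, and Fen1, a flap nuclease that overlaps Tmem258 on the other strand, at 0.97. Among cell cycle inhibitors Cdkn1b was at -0.59 and Cdkn2b at -0.83, while Cdkn2d was at 0.72 and Cdkn1a at 0.46.

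Of 17 tested clock genes 12 were lower and 2 higher (median -0.59). Nr1d1, a repressor of the clock that overlaps Thra on the other strand, had 22.12, 13.73 and 14.13 FPKM in low and 3.34, 3.63 and 2.989 FPKM in high arginine, and was called lower (adjusted p 1.24e-06). Nfil3 was at -1.77 and Arntl, the core activator BMAL1, at -1.26, whereas Bhlhe40, a repressor that hypoxia also induces, was at 1.09. Among redox genes Txnip, a thioredoxin-binding arrestin induced by glucose, was at -1.83 and Srxn1, sulfiredoxin, at 1.12, with 12 of 21 higher and 5 lower. Of 13 tested BCL2 family genes 8 were lower and 3 higher, with the death activators Bbc3 at -1.16 and Hrk at -1.44 and Bik at 1.41. Hrk passed the filter only through the low arginine libraries, so it had to differ. With no filter 15 were tested, with 6 lower, 3 higher and 6 not called. Without 1 low arginine library 12 were tested, with 4 to 6 lower. Of 14 tested p53 targets 5 were higher and 7 lower. The counts of these lists stand beside 32.3% higher and 29.2% lower over all genes tested.

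The standard arginine libraries then showed where in the range these differences lay. The position of a gene is the place of its standard mean on the way from its low mean (0%) to its high mean (100%), on the log2 scale. It has no test of its own, because it shares libraries with the comparison. Of the 654 genes at least 2-fold apart, 562 (85.9%) lay at 80 to 120% and are called saturated at standard arginine. Another 65 (9.9%) lay at 20 to 80% and are called graded, 24 lay beyond 120%, and 3 lay below 20%. The median position was 97.4% (upper quartile 105.0), 98.5% for higher and 96.3% for lower genes. In 490 of the 654 the standard libraries overlapped the high ones, in 16 they overlapped the low ones, and in 108 they lay between both ends with no overlap. Of those 108, 24 of the 72 higher and 14 of the 36 lower genes are graded. The count beyond 120% became 43 without standard replicate 3, and that below 20% became 1 without low replicate 1.

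**Figure D3:**
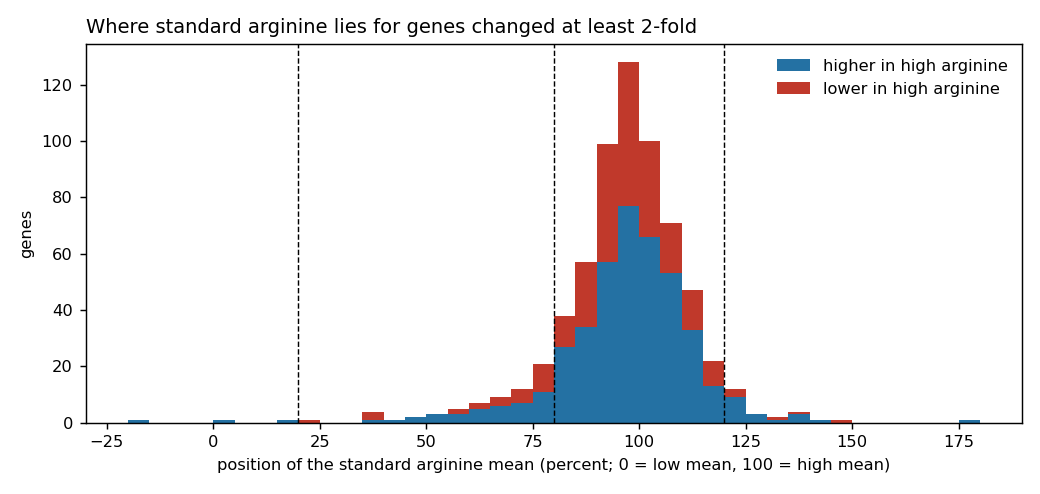
Position of the standard arginine mean for the 654 genes changed at least 2-fold between high and low arginine, in percent of the way from the low mean (0) to the high mean (100), as counts of genes per bin stacked by direction. Dashed lines stand at 20, 80 and 120%, and most genes lie near the median of 97.4%.

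Near the bounds, with a mean of at least 5 FPKM in the higher group, mt-Tg lay at 18.8% and Sumo2 at 35.5%, Gpd1 at 79.8% and mt-Nd4l at 80.5%, and Fam162a at 119.2% and Aldoa at 120.3%. Of the cholesterol list 24 of 25 genes lay at 80 to 120%, and Tm7sf2 lay at 129.3%. The 14 ATF4 targets that were at least 2-fold lower lay at 82.4 to 109.5%, and the 15 glycolysis genes at 102.3 to 121.0%. The mitochondrially encoded genes lay lower. All 13 were higher in high arginine (median 0.83; 12 in TPM and under quantile normalization), and the 5 that were at least 2-fold higher lay at 54.5 to 82.1%. mt-Nd2, a subunit of complex I, had 335.2, 296.8 and 332 FPKM in low and 792.8, 795.9 and 807.7 FPKM in high arginine (1.31, SE 0.07), against a standard mean of 679.6 FPKM. Nuclear copies of mitochondrial genes can share their reads.

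From standard to high arginine 38 genes, 0.309% of those tested, were called, and from low to standard 7646, or 62.2%. Both steps share the standard libraries, and each shares libraries with the comparison of the ends, so no overlap between them is given.

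The rule for graded genes named 8 whose standard libraries lay between both ends and overlapped neither. Among such genes it took those with the largest change from standard to high arginine, the upper step. The order of the groups was thus a condition of the choice. The p-values of the upper step belong to genes picked by the size of that step. Scgn, which encodes the calcium sensor secretagogin, rose from 1.952, 1.546 and 2.172 FPKM in low through 3.11, 3.277 and 3.104 in standard to 4.542, 5.584 and 5.45 FPKM in high arginine. It was higher by 1.10 over the whole range and by 0.57 from standard to high (adjusted p 0.0427), a position of 48.4%. Bcl6b, a transcriptional repressor, rose from 12.4, 11.75 and 12.62 FPKM through 23.21, 18.09 and 20.26 to 27.29, 28.6 and 27.91 FPKM (1.13, position 61.5%). Its upper step was not called (adjusted p 0.0509). Hs3st6, a heparan sulfate sulfotransferase, rose from 3.874, 4.136 and 5.331 FPKM through 13.28, 11.75 and 11.53 to 16.9, 16.22 and 16.63 FPKM (1.70, position 75.5%), and Mylpf, a myosin light chain, was higher by 1.43 (position 69.0%).

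Among graded falls, Dkk2, a secreted WNT modulator, went from 6.198, 6.108 and 6.077 FPKM through 2.898, 3.372 and 3.385 to 1.729, 2.194 and 2.157 FPKM (-1.24, SE 0.08, position 61.2%). Its upper step was called at -0.48 (adjusted p 0.0403). Neat1, the noncoding scaffold of paraspeckles, went from 15.08, 9.633 and 12.66 FPKM through 4.789, 6.024 and 5.625 to 3.499, 2.532 and 3.543 FPKM (-1.67, SE 0.15, position 62.1%), with the upper step not called (-0.63, adjusted p 0.114). In both genes the 3 groups were ordered with no overlap, as the rule required. Cirbp, a cold-inducible RNA-binding protein, was at -1.03 with an upper step of -0.42 (adjusted p 0.0201), and Fbp2, a fructose bisphosphatase, at -1.41 with a position of 58.4%.

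**Figure D4:**
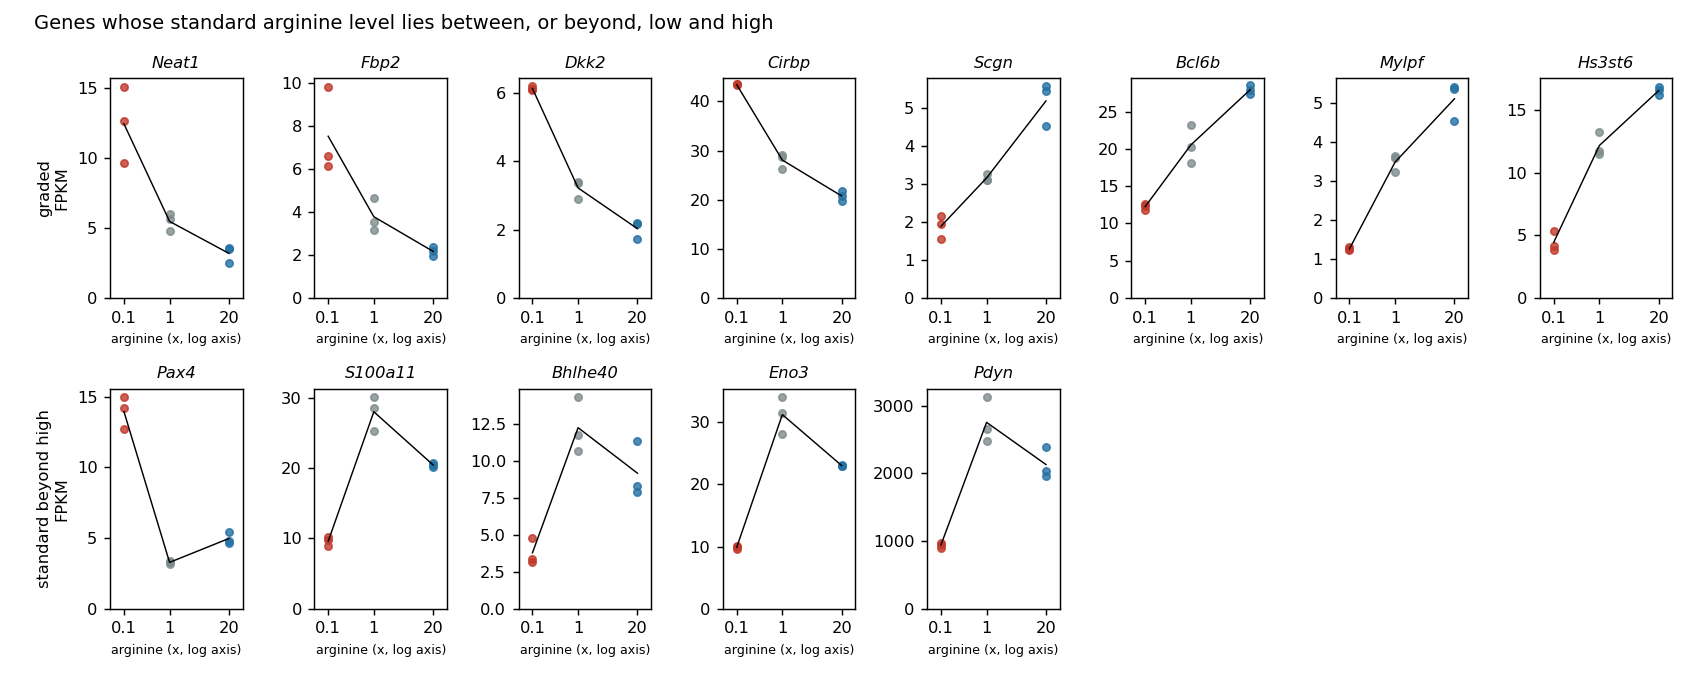
FPKM in every library against arginine concentration in multiples of the standard (log axis), with 1 point per library and a line through the group means, for 8 graded genes (top) and 5 genes whose standard level lies beyond the high one (bottom). Scgn rises at both steps, to 4.542 to 5.584 FPKM, while Pax4 is lowest in standard arginine, at 3.168 to 3.386 FPKM.

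In 24 genes the position was over 120%, so that the standard mean lay past the high mean. Those named here were picked as furthest above 120%, so the direction of the upper step was a condition of the choice. The p-values of the upper step belong to genes picked in this way. Pax4, a beta cell lineage factor, had 14.94, 12.7 and 14.18 FPKM in low, 3.168, 3.271 and 3.386 in standard and 4.791, 4.662 and 5.444 FPKM in high arginine. It was lower by a difference of -1.32 between the ends and higher by 0.48 from standard to high (adjusted p 0.0313). Eno3, the muscle enolase, had 10.03, 9.927 and 9.639 FPKM in low, 31.54, 34.11 and 28.06 in standard and 22.95, 23.17 and 22.98 FPKM in high arginine, with an upper step of -0.42 (adjusted p 0.0403). S100a11, a calcium-binding protein, had the same shape, at 1.02 over the range and -0.43 in the upper step (adjusted p 0.0437). For Pdyn, which encodes prodynorphin, and Bhlhe40 the upper step was not called (adjusted p 0.143 and 0.293), with positions of 131.4% and 135.6%.

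The 3 genes below 20%, all higher in high arginine, were mt-Tg, Gm23301 and Mir7682, short RNA genes named after their values were seen. Mir7682 was listed at 0 in all low and standard libraries and at 3.707, 1.499 and 3.588 FPKM in high arginine. It passed the filter only through the high arginine libraries, so it had to differ, with its position at 0. mt-Tg, a mitochondrial transfer RNA, had 2.8, 6.4 and 0.5222 FPKM in low and 13.91, 8.948 and 8.569 FPKM in high arginine, with a call (adjusted p 0.00939) that was lost when no filter on low values was used. Mat2a was under 2-fold but changed above standard arginine: it had 29.25, 31.54 and 33.68 FPKM in low, 28.18, 28.74 and 30.89 in standard and 39.43, 42.73 and 44.34 FPKM in high arginine. Low and standard libraries overlapped, and all high libraries lay above both. Its difference was 0.41 between the ends and 0.51 from standard to high (adjusted p 0.0201); it overlaps Particl on the other strand. Slc30a8, the zinc transporter of insulin granules, had 16.4 ± 0.421, 16.7 ± 0.511 and 22.3 ± 0.887 FPKM in low, standard and high arginine (SD, n = 3 each), a difference of 0.42 between the ends. Cdkn2b, a cell cycle inhibitor, had 23.26, 22.6 and 20.16 FPKM in low and 12.25, 11.69 and 11.68 FPKM in high arginine, with a standard mean of 18.1 FPKM and a position of 31.7%.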

How the data were processed

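The data are RNA-seq of 9 libraries of MIN6 cells, 3 each from low, standard and high arginine. Per the file headers, the authors deposited a table of FPKM values with a column for each library and the length of each gene. A directional kit was used, per the labels' protocols, and per the submitters' processing notes the tools were featureCounts 1.5.0-p3, HISAT2 2.0.5 and CASAVA 1.8. The strand setting was not given in the sources used here, so genes that overlap on opposite strands cannot be told apart. Besides the overlaps given above, Cdkn1a, Cebpg, Nfkb2, Pcsk2, Shmt2, Sqstm1 and Yars each overlap a tested gene on the other strand. Overlap was looked up only for genes named by the rule. The notes name mm9, but 98.33% of 54495 gene IDs shared with GENCODE M21 have the GRCm38 positions of that annotation, and coordinates are given as GRCm38. The table held 54876 genes, of which 344 had no symbol.

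Multiplied by gene length, 100% of FPKM values were whole multiples of 1 read (tolerance 0.01 reads), which gave each library's reads in genes. The library size behind the FPKM was 0.9621 to 1.0767 times these reads, so a scale factor was already in the values. This ratio was 1.0483 to 1.0767 in low, 0.9621 to 1.016 in standard and 0.9689 to 0.9943 in high arginine libraries. FPKM values summed to 336716 to 343486 in low and 364112 to 375071 in high arginine libraries. FPKM is not a count, and no count model was used. In R 4.3.3, limma 3.58.1 was fitted to log2(FPKM + 1) values, with group as the only term over all 9 libraries (6 residual degrees of freedom), a trended prior variance and two-sided p-values adjusted by Benjamini-Hochberg over 12300 genes, of which 10771 were protein-coding. The script was tested on simulated data. Every pair of libraries within a group differed beyond sampling noise (chi-square over its degrees of freedom 2.586 to 12.605), so none was counted as a repeat.

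Named genes were the 12 largest rises and 12 largest falls that were called, carried a full symbol, reached a mean of 5 FPKM at one end and did not overlap between the ends, the 4 or fewer called members of each list with the lowest p, a set of insulin, arginine and stress genes, and up to 8 graded and 5 other genes by position; unannotated loci were left out. The graded genes were those with the largest change from standard to high arginine among graded genes with no overlap of the groups. Further members are named from the 31 pathway and 6 marker lists as examples. The members and lists were chosen with earlier results of these data known. A few genes within the rule are left out here. Promoters are the 250 bases before each RefSeq start, searched on both strands, for 27025 symbols, of which 8799 of the 12298 tested symbols matched.

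Same-numbered low and high arginine libraries had correlations of deviations from the group means of 0.243, 0.153 and 0.217. With the standard libraries 3 of 6 such correlations were over 0.1 and the lowest was -0.036. Libraries of different number were not compared in this way, so these values cannot decide whether the libraries are paired. The labels do not pair them.

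Alternatives covered the pseudocount (0.1), the filter, scaling to TPM, quantile normalization, a replicate block, the libraries in the fit, voom weights, array weights, other bounds for the position and leaving out each library.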

Additional observations from a re-analysis of the deposited data

How the results depend on the processing

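The scale of the values set the count of large differences. A pseudocount of 0.1 in place of 1, which compresses low genes less, gave 668 higher and 447 lower genes at 2-fold or more (420 and 234 in the report), with 9 below 20%, 182 graded, 861 saturated and 63 over 120% (3, 65, 562 and 24 in the report). Voom weights on rebuilt reads gave 710 and 468. A stricter filter, a mean of 5 FPKM or more, left fewer genes to test; there 2190 genes were lower in place of 3594, with 29 graded and 1 below 20%; with no filter on low values, 1 was below 20%. Bounds of 10, 90 and 110% gave 163 graded genes and 93 over 110%. Leaving out 1 library at a time gave 3591 to 4110 higher and 3140 to 3757 lower genes, 405 to 444 and 211 to 244 at 2-fold or more, and 1 to 4 below 20%, 55 to 84 graded, 523 to 583 saturated and 18 to 43 over 120%. With a replicate block 4194 were higher and 3866 lower, and 420 and 234 at 2-fold or more, and among named genes the block changed the call of Ass1 alone. Under quantile normalization Hspa5 and Atf4 changed sign, at -0.11 and -0.20. Of the values of 171 named genes over 18 settings, 3028 kept their call, 20 lost it, 5 gained it and 2, called in the report or under the alternative, turned to the other sign. Genes never called could change sign and still count as keeping theirs, as Asns did (0.11, and -0.09 under quantile normalization). A setting that did not test a gene gave no value for it. With only the high and low arginine libraries in the fit, 12058 genes were tested, with 4005 higher and 3687 lower. The cause of these shifts was not tested.

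Low FPKM rests on few reads, and 3 libraries a group limit the spread estimate. The position of a gene uses the same libraries as its difference and has no error of its own.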
